A study of Mus musculus with 86 samples.

Results

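RNA Bind-n-Seq (RBNS) measured which members of a pool of designed 3′ UTR RNAs were recovered with purified TDP-43, an RNA-binding protein. The 4 libraries described here, of 86 samples in the series, were 2 pull-downs with 5 nM TDP-43 (Rep1 and Rep2), 1 pull-down without protein (0 nM) and 1 library of the starting pool (Input). They were chosen by the concentration in their labels, and the question was which oligos took a larger share of reads at the lowest protein level and which came through without any. The study asked how TDP-43 acts on the localization of neuronal RNAs to neurites. Its reporter assay (MPRA) placed the same oligos in CAD cells, a mouse catecholaminergic neuronal line whose TDP-43 came from a single-copy transgene under a doxycycline-off promoter. The labels of all 4 name CAD cells and doxycycline treatment, but the binding step was done in a tube. Recombinant full-length human TDP-43 with an SBP tag, made in bacteria, was held on streptavidin beads, mixed with the RNA pool at 500 nM for 1 h at 4 °C, washed 3 times and eluted with biotin. RNA was in excess over protein at 5 nM. The 0 nM tube held the same pool without TDP-43, so its library counted RNA that stayed with the beads and tube.

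TDP-43 carries a pair of RNA recognition motifs that together prefer single-stranded GU-rich RNA, and long GU repeats are its best-known ligands. In neurons it is known for repressing cryptic exons, binding long introns and 3′ UTRs, and aggregating in ALS and frontotemporal dementia. In RBNS, an RNA that the protein holds takes a larger share of reads than in both the starting pool and the tube without protein, while an RNA that sticks to the beads exceeds the pool with or without protein.

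The pool held 11537 oligos of 260 nt, cut every 6 nt from 16 mouse 3′ UTRs, so neighbouring tiles shared 254 nt and were not independent of each other. Of these, 4346 carried at least 1 of the designed motifs, the GU repeats GUGUG and UGUGU and the related GUAUG, and are called motif oligos. A further 4396 were mutated oligos, in which such motifs had been replaced by their complement. The other 2795 had no annotated motif. At least 20 Input reads were asked of an oligo, which kept 4031 motif, 3888 mutated and 2417 motif-free oligos, 10336 in all.

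The sequences on which the results turn are shown first. Each is the 30-nt window of a run of neighbouring tiles with the most motif bases, written 5′ to 3′ as RNA, on mm10, and read from GENCODE transcripts. In the first set, capitals mark bases inside a designed motif (these overlap each other), and the set is shown because the runs in Spock2, Fam219a, Cacna1b and Fam160b2 were at least 1.5-fold above 0 nM in both 5 nM libraries while the one in Lrrc47 was not.
Spock2 tile 21, chr10:60131707-60131736, plus strand: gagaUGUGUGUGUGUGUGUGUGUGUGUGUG
Fam219a tile 151, chr4:41519284-41519313, minus strand: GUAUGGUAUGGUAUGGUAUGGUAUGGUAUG
Cacna1b tile 281, chr2:24605009-24605038, minus strand: UGUGUGUGUGUGUGUGUGUGUGUGUGUGUG
Fam160b2 tile 261, chr14:70583544-70583573, minus strand: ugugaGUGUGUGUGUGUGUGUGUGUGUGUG
Lrrc47 tile 11, chr4:154019890-154019919, plus strand: GUGUGgGUGUGcuguaggugucUGUGUGgG

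In the second set, capitals mark GAUG, a 4-letter word that was not one of the designed motifs and shares no base with them inside these windows. It is shown because runs dense in it stood furthest above both 0 nM and Input at 5 nM among the runs found. GAUG itself is common, since 68.4% of the 9381 oligos with a sequence held at least 1 copy on the RNA strand. Kank2 tile 271 is shown because its block was dense in GAUG too and did not exceed Input in Rep1.
Wasf3 tile 421, chr5:146472944-146472973, plus strand: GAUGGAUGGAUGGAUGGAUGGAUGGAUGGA
Ksr2 tile 1467, chr5:117774579-117774608, plus strand: GAUGggaaggugGAUGgacaGAUGGAUGGA
Kank2 tile 271, chr9:21767340-21767369, minus strand: GAUGGAUGcauaaaugaauaGAUGGAUGGA

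In the third set, capitals mark G and C. These windows come from runs that stood far above 0 nM without exceeding the Input share in both 5 nM libraries.
Diras1 tile 321, chr10:81019763-81019792, minus strand: CCGGGCuGGGuGGCaGGGGaGGCCGGaGCC
Fam219a tile 1, chr4:41520211-41520240, minus strand: GuGGGCGGGGuCGCCGCGGuGCaCGGGGCG
Coordinates were at hand for only 25 of the 40 tiles of Diras1 321 to 360. They were also at hand for 5 tiles of Fam160b2 261 to 270 and 2 of Ksr2 1531 to 1540. The other tiles of these runs were not placed. By the GENCODE annotation, the tiles with coordinates each lay inside 1 exon. They were in the 3′ UTR, except that Fam219a tiles 1 to 20 and Lrrc47 tiles 11 to 20 began in the end of the coding sequence.

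The libraries differed in depth. Input held 6028366 reads, the 0 nM library 6803478, 5 nM Rep1 4475295 and 5 nM Rep2 1806779. Of the 10336 tested oligos, 253 had no read at 0 nM, 175 none in 5 nM Rep1 and 507 none in 5 nM Rep2. The limit that a count of 0 allows, 3 reads, stood for 0.441 RPM (reads scaled to a library of 1000000) at 0 nM and for 0.670 and 1.66 RPM at 5 nM. Intervals and limits here cover counting error only, because the reads carry no molecular identifiers and PCR copies are not separate molecules.

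As a whole, the 5 nM libraries looked much like the tube without protein. Ranked by share of reads, the tested oligos gave Spearman's rho of 0.97 between 0 nM and 5 nM Rep1, 0.93 between 0 nM and 5 nM Rep2, and 0.94 between the 2 replicates. The median absolute difference was 0.27, 0.41 and 0.38 on the log2 scale, in the same order. The libraries share the pool, so its unequal composition is in each value. After thinning each library to 1806779 reads, rho was 0.97, 0.93 and 0.94. Rep1 was therefore nearer to the library without protein than to its own replicate. The median change of all tested oligos from 0 nM was 0.03 in Rep1 and 0.01 in Rep2 (log2).

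With single oligos tested, no change at 5 nM passed the threshold. edgeR's quasi-likelihood test called 0 of 10336 oligos (0.0%) at an adjusted p under 0.05, with 451 at an unadjusted p under 0.05, and the lowest adjusted p was 0.0604 (n = 1 library at 0 nM and 2 at 5 nM, with the spread taken from the 3 replicate pairs). DESeq2 on the same libraries called 94 higher (0.909% of those tested) and 2 lower (0.0193%). DESeq2 also used its own size factors, so tool and scaling changed together. edgeR itself called 43 oligos with TMM factors, 18 with the library size taken from motif-free oligos and 20 with only the 0 nM and 5 nM libraries, and with 1 library left out it called 37 without 5 nM Rep1, 47 without 500 nM Rep1 and 51 without 500 nM Rep2. Whether any oligo was called therefore depended on the scaling, the libraries and the tool. At the higher concentrations, which use the same 0 nM library, edgeR called 964 oligos higher (9.33%) and 1492 lower (14.4%) at 50 nM, and 1692 higher (16.4%) and 2973 lower (28.8%) at 500 nM. Counts were simulated with the real library sizes, edgeR's own dispersions and a mean pooled over 0 and 5 nM. On these, edgeR recovered 7 of 50 oligos changed 2-fold, 31 of 50 changed 4-fold and 44 of 50 changed 8-fold at 5 nM, and called 8 unchanged ones. DESeq2 recovered 11, 35 and 48 of 50 in the same order and called 26 unchanged ones, so more of its calls than of edgeR's were false in this simulation. Because the counts were drawn with edgeR's dispersions, this does not rank the tools. The p-values measure the spread between these libraries, which may be technical. The study's methods name duplicates from independent protein batches, which the labels do not tie to the replicate numbers.

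The single oligos named here and in the runs were chosen after their values were seen. The 2 that DESeq2 called lower were mutated oligos, Cacna1b tile 233 with 84 Input, 29 0 nM and 0 and 0 reads at 5 nM, and Diras1 tile 86 with 26, 63, 0 and 0. Of the 94 called higher, 34 came from 1 run in Ksr2, 19 from Diras1 tiles 321 to 360 and 16 from Fam219a tiles 1 to 20. These 3 runs belong to different kinds, which are described in turn after the count by fold.

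By fold alone, 411 of the 10336 tested oligos (3.98%) were at least 2-fold above 0 nM in both 5 nM libraries, with 0.5 reads added to each count, and 177 (1.71%) were at least 2-fold below in both. Of the 411, 56 had no read either at 0 nM or in Rep2 and passed in Rep2 through the added 0.5 alone. With at least 3 reads asked of each 5 nM library, 346 were left (3.35%). Of these, 143 stood above their Input share in both 5 nM libraries, as did 3392 of all 10336 tested. In 272 the 0 nM share was at most 1/2 of the Input share, against 16.0% of all tested. An oligo past this fold that did not exceed Input in both libraries must have such a share, so this count is partly fixed by the fold. The 2 groups share members. The median of the 346 against Input was -2.18 at 0 nM, -0.10 in Rep1 and 0.36 in Rep2 (log2). By UTR, 94 of the 346 were in Ksr2 (of 2066 tested), 45 in Diras1 (of 501) and 45 in Fam219a (of 590), while Tub gave 11 of 1151.

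The designed motifs were counted first, since long GU tracts are the known ligand. In motif oligos with 1 to 10 motif bases, the median change from 0 nM was 0.02 in Rep1 and -0.04 in Rep2 (log2, n = 2635 oligos), and with 11 to 20 it was -0.01 and -0.07 (n = 807). Few motif bases thus left an oligo at the level of the pool. With 21 to 40 it was 0.05 and 0.22 (n = 308), and with 41 to 80 it was 0.35 and 0.73 (n = 162). With 81 or more it was 0.15 and 0.61 (n = 119). Among oligos with 41 to 80 motif bases, 18 were at least 2-fold above 0 nM in both libraries with 3 reads or more in each (11.1%), and among those with 81 or more 13 were (10.9%), against 3.35% of all tested. The medians were a fraction of those at higher concentrations, where oligos with 41 to 80 motif bases stood 1.95 and 2.71 above 0 nM in the 50 nM replicates and 2.80 and 2.37 above it in the 500 nM replicates.

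The tested mutated oligos had smaller medians in these classes, but they were not the companions of all the motif oligos counted above. In Fam219a tiles 151 to 170 and Cacna1b tiles 281 to 290, for example, no companion had 20 Input reads. Only the pairs given below compare matched oligos. With 41 to 80 designed motif bases replaced, the median change from 0 nM was 0.16 in Rep1 and 0.25 in Rep2 (log2, n = 97), and with 81 or more replaced it was -0.08 and 0.08 (n = 72). The ratio of each motif oligo to its own companion cancels any difference in library size. Over 3836 pairs with at least 20 Input reads in both members, its median log2 value was 0.07 in Input, 0.09 at 0 nM, and 0.06 and 0.01 at 5 nM. Over all pairs, then, 5 nM did not stand above the library without protein, whereas the 500 nM replicates gave 0.34 and 0.38. In the 93 pairs with 41 to 80 motif bases it was -0.54 in Input, -0.54 at 0 nM, -0.66 in Rep1 and -0.33 in Rep2, so the 5 nM replicates lay on either side of 0 nM. In the 71 pairs with 81 or more it was -2.95 in Input, -3.23 at 0 nM, -3.16 in Rep1 and -3.11 in Rep2, so both 5 nM values lay slightly above 0 nM. edgeR's test of the ratio at 5 nM against 0 nM called 0 of 3836 pairs (0.0%), with 370 at an unadjusted p under 0.05 and a lowest adjusted p of 0.112. DESeq2 was not run on pairs. The same fit called 124 pairs higher (3.23%) and 105 lower (2.74%) at 50 nM and 702 higher (18.3%) and 214 lower (5.58%) at 500 nM.

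Because neighbouring tiles share most of their sequence, reads of the unmutated oligos were also summed over blocks of 10 neighbouring tiles, a choice made after the single-oligo values were seen. Of 687 blocks with at least 100 Input reads, 31 (4.51%) had both 5 nM libraries at least 1.5-fold above 0 nM with 3 reads or more in each, and 6 (0.873%) had both at least 1.5-fold below. In edgeR's quasi-likelihood test of blocks, 0 of 710 with at least 20 Input reads passed (0.0%), with 25 at an unadjusted p under 0.05 and a lowest adjusted p of 0.13. DESeq2 was not run on blocks. Of the 31, 17 also stood above Input in both 5 nM libraries. Among these 17, 7 were dense in the designed motifs (a mean of 40 motif bases or more per oligo). Another 9 were dense in GAUG (a mean of 10 copies or more). In all 687 blocks, 33 were motif-dense and 12 GAUG-dense. GAUG was looked for after these blocks had been seen, so the 9 are not independent support for it. In all, 16 of the 17 were dense in one or the other. The exception was a block of the single Kcnj12 tile 501, a motif-free oligo with 417 Input, 357 0 nM, 398 Rep1 and 190 Rep2 reads. The blocks are described without a test beyond these fits.

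Of the 33 motif-dense blocks, 7 were at least 1.5-fold above 0 nM in both libraries (21.2%, against 4.51% of all) and 22 were above 0 nM in both. Their median change was 0.26 in Rep1 and 0.51 in Rep2 (log2), beside 0.02 and -0.03 for all 687 blocks. The clearest was in Spock2, which encodes a secreted testican proteoglycan. Tiles 21 to 40, with 74 motif bases each, held 5224 Input, 6105 0 nM, 6947 Rep1 and 5729 Rep2 reads. Its share was 867 RPM in Input (exact 95% interval 843 to 890), 897 at 0 nM (875 to 920), 1552 in Rep1 (1516 to 1589) and 3171 in Rep2 (3089 to 3254). The 0 nM share thus lay close to Input, and both 5 nM shares were above it, 1.73-fold and 3.53-fold, with intervals that did not overlap. The mutated companions of the same 20 tiles held 505, 400, 356 and 116 reads and were 1.35-fold and 1.10-fold above 0 nM. The mutations also removed most copies of GAUG, the word shown in the second set, from 7.4 per oligo on average to 1.4, so the parts of the 2 words in this difference cannot be told apart. The oligo named for each run is the one whose smaller 5 nM change was largest among unmutated oligos with at least 100 Input reads. Here it was Spock2 tile 21, with 185 Input, 191 0 nM, 346 Rep1 and 310 Rep2 reads and a fitted log2 change of 2.13 with an adjusted p = 0.219 in edgeR and 0.00471 in DESeq2.

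The Fam219a run of GUAUG repeats (tiles 151 to 170) had 116 motif bases in each of the 19 tiles with a mutated companion. It stood at 0.871 of Input at 0 nM and at 1.36 and 2.21 times Input at 5 nM. That was 1.56-fold and 2.54-fold above 0 nM. The reads were 1854 in Input, 1823 at 0 nM, 1875 in Rep1 and 1230 in Rep2. By the same rule its oligo was Fam219a tile 163, with 131, 65, 148 and 110 reads in the same order (adjusted p = 0.186 in edgeR, 0.00279 in DESeq2). Tiles 158 and 155, with 71 and 50 Input reads, had larger fitted changes (3.47 and 3.15 against 2.27 on the log2 scale). Tile 158 had no mutated companion in the counts and was therefore classed as motif-free, although it lies among tiles with 116 motif bases. This run could not be compared with its mutated companions, which held 26 Input reads in all. In Cacna1b, the gene of the CaV2.2 presynaptic calcium channel subunit, tiles 281 to 290 went from 0.673 of Input at 0 nM to 1.25 and 2.06 times Input, and their companions held only 20 Input reads. In Fam160b2, tiles 261 to 270 went from 0.833 to 1.31 and 1.83 times Input, and their mutated companions from 0.901 to 1.19 and 1.12. In Kcnj12, which encodes an inward-rectifier potassium channel, tiles 411 to 420 went from 1.29 to 1.97 and 2.99 times Input, and their mutated companions from 1.37 to 1.47 and 1.29. In each of these 3 runs Rep2 was the higher of the 5 nM libraries and Rep1 stayed under 2-fold over 0 nM.

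Many motif-dense stretches were not above 0 nM by this fold. Lrrc47 tiles 1 to 90 formed 9 motif-dense blocks, and none reached 1.5-fold over 0 nM in both libraries. Lrrc47 tiles 11 to 20, with 107 motif bases on average, stood 0.63 above Input at 0 nM, 0.48 in Rep1 and 1.07 in Rep2 (log2). At 500 nM the same block stood 2.91 and 2.34 above Input, close to the 3.06 and 2.50 of Spock2 tiles 21 to 30. The printed windows differ in that the Spock2 and Cacna1b tracts are unbroken, while the Lrrc47 tract is cut by other bases, and the part of this in the 5 nM values was not tested. In Diras1, which encodes a Ras-family GTPase, the motif-dense tiles 201 to 210 stood at 0.25 at 0 nM, 0.36 in Rep1 and 1.03 in Rep2, and then at 2.74 and 3.29 at 50 nM (log2 against Input).

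The highest values over both references were in runs with few or none of the designed motifs and many copies of GAUG, a word that was looked for after these runs had been seen. The Ksr2 3′ UTR, from a gene for a scaffold of the Raf, MEK and ERK kinase cascade, held such a run near its end. Ksr2 tiles 1421 to 1490 (chr5:117774077-117774750, plus strand) had 5.64 designed motif bases and 16.5 copies of GAUG on average. The 70 oligos held 2969 Input, 2182 0 nM, 4360 Rep1 and 4142 Rep2 reads. Its share was 493 RPM in Input (exact 95% interval 475 to 511), 321 at 0 nM (307 to 335), 974 in Rep1 (946 to 1004) and 2292 in Rep2 (2223 to 2363). The run was therefore below Input without protein and above it in both 5 nM libraries, 3.04-fold and 7.15-fold over 0 nM. Of its 42 tested oligos, 40 were above 0 nM in both libraries. By at least 2-fold with 3 reads or more in each, 31 were (against 3.35% of all tested), and DESeq2 called 21 (against 0.909% called higher of all tested). The run was chosen for its rise over this same 0 nM library, so these counts are not separate support.

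The mutated companions of this run were also above 0 nM. The 52 mutated companions in Ksr2 tiles 1421 to 1490, with 17.0 copies of GAUG on average, held 2249 Input, 1706 0 nM, 2585 Rep1 and 2490 Rep2 reads, which is 2.30-fold and 5.50-fold over 0 nM. DESeq2 called 13 of them. Among unmutated oligos with at least 100 Input reads, the one with the largest smaller change was Ksr2 tile 1424, which had 102 Input, 15 0 nM, 91 Rep1 and 119 Rep2 reads, with an adjusted p = 0.118 in edgeR and 3.68e-06 in DESeq2. Tiles 1451, 1438 and 1437 had larger fitted changes on 20, 26 and 22 Input reads. The mutated companion of tile 1424 had 82, 71, 55 and 40 reads, so this tile differed from its companion mostly in the 0 nM library.

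Wasf3, whose protein is part of the WAVE complex that drives actin branching, held a purer example. Wasf3 tiles 421 to 440 (chr5:146472798-146473171, plus strand) had no designed motif base and 20.2 copies of GAUG on average. The 20 oligos held only 285 Input, 287 0 nM, 475 Rep1 and 347 Rep2 reads, and so went from 0.892 of Input at 0 nM to 2.24 and 4.06 times Input at 5 nM. This was 2.51-fold and 4.55-fold over 0 nM. The exact 95% intervals were 37.4 to 47.4 RPM at 0 nM, 96.8 to 116 in Rep1 and 172 to 213 in Rep2. All 5 tested oligos of the run were above 0 nM in both libraries, and 2 were called by DESeq2. This run too was chosen for its rise over 0 nM, so these counts are not separate support.

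GAUG was picked from runs that rose at 5 nM, so counts of blocks dense in it are not independent support. All 12 GAUG-dense blocks were above 0 nM in both 5 nM libraries, and 9 of them by at least 1.5-fold (against 4.51% of all blocks). They lay in only 3 places, 8 blocks in Ksr2, 3 in Wasf3 and 1 in Kank2, so they are not 12 independent sequences. Their median change from 0 nM was 1.34 in Rep1 and 2.34 in Rep2 at 5 nM, 2.31 and 2.12 at 50 nM and 2.81 and 2.76 at 500 nM (log2). In the 33 motif-dense blocks the same medians were 0.26 and 0.51, 1.64 and 2.32, and 2.43 and 2.27. The 5 nM median of the GAUG-dense blocks thus lay near their 50 nM medians in Rep2 (2.34) but below them in Rep1 (1.34). The motif-dense blocks lay below their 50 nM medians in both 5 nM libraries. The designed motifs were fixed beforehand, whereas GAUG was picked for its rise at 5 nM. The contrast between the classes therefore cannot show which of them TDP-43 holds more tightly. In Ksr2 tiles 1441 to 1450 the 5 nM values were 1.48 in Rep1 and 3.11 in Rep2 (log2 against Input). The Rep2 value was above the 1.66 and 1.23 at 50 nM and the 2.50 and 2.57 at 500 nM, and the Rep1 value was not.

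Oligos with a few copies of GAUG stayed near the level of 0 nM. Among motif-free oligos with a sequence, the median change at 5 nM was 0.04 and 0.07 with no GAUG (n = 851), 0.03 and -0.05 with 1 or 2 copies (n = 825), 0.01 and -0.04 with 3 or 4 (n = 149), -0.12 and -0.08 with 5 to 8 (n = 16) and 0.82 and 1.51 with 9 or more (n = 37; log2, Rep1 and Rep2). Mutated oligos with 9 or more copies gave 0.71 and 1.86 (n = 53). Of these, 20 were at least 2-fold above 0 nM in both libraries with 3 reads or more in each (37.7%, against 3.24% of all mutated oligos). Tested oligos with 9 or more copies lay only in Ksr2, Wasf3 and Kank2. They include the Ksr2 and Wasf3 runs in which the word was found, so this class is not independent support. The block of Wasf3 tiles 391 to 400, with 8.6 copies on average, lay below 0 nM in both. It held 383 Input, 307 0 nM, 130 Rep1 and 11 Rep2 reads, and then 2202 and 1474 reads at 500 nM. Kank2 tiles 271 to 280, with 13.8 copies stood at -0.35 at 0 nM, -0.04 in Rep1 and 0.58 in Rep2 (log2 against Input).

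A second group of 14 blocks was at least 1.5-fold above 0 nM without exceeding Input in both 5 nM libraries. This choice alone puts the 0 nM share at least 1.5-fold below the Input share, so a low 0 nM value is built into the group. In all 14 it was at most 1/2 of the Input share. The largest run was Diras1 tiles 321 to 360, with 2.88 motif bases on average. Its mean GC content was 68.3% over the 25 tiles with a sequence. Its 40 unmutated oligos held 4136 Input reads but only 385 at 0 nM, then 1350 in Rep1 and 1688 in Rep2. Its share was 686 RPM in Input (exact 95% interval 665 to 707), 56.6 at 0 nM (51.1 to 62.5), 302 in Rep1 (286 to 318) and 934 in Rep2 (890 to 980). The run was 5.33-fold and 16.5-fold above 0 nM, but Rep1 stayed at 0.440 of Input. Its mutated companions went from 0.122 of Input to 0.377 and 1.64 times Input. At 500 nM the unmutated run was at 0.371 and 0.218 of Input, below 5 nM Rep2. Diras1 tile 323, a motif-free oligo, had 156 Input, 0 0 nM, 205 Rep1 and 24 Rep2 reads (adjusted p = 0.109 in edgeR, 0.00121 in DESeq2).

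Fam219a tiles 1 to 20, with a mean GC content of 63.8%, were the other such run with many DESeq2 calls. They held 2236 Input, 566 0 nM, 1374 Rep1 and 689 Rep2 reads, which is 0.224 of Input at 0 nM and 0.828 and 1.03 at 5 nM. The mutated companions went from 0.327 to 0.830 and 1.11. In this run Fam219a tile 12 had 129 Input, 0 0 nM, 81 Rep1 and 48 Rep2 reads, and its companion 157, 26, 84 and 32. The remaining runs of this kind were in Ksr2 (tiles 451 to 470, 1261 to 1270 and 1531 to 1540), Kcnj12 (tiles 51 to 60, 181 to 190 and 371 to 380) and Fam219a (tiles 404 to 410). Ksr2 tiles 451 to 470 went from 0.155 of Input to 0.273 and 0.437, and Ksr2 tiles 1531 to 1540 from 0.0432 to 0.137 and 0.125. With a single 0 nM library, a low value there and binding at 5 nM cannot be told apart in these runs.

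Falls below 0 nM were found in oligos with less GC, while rises were most frequent at both ends of the GC range. The 177 oligos at least 2-fold below 0 nM in both libraries had a median GC content of 39.6% where a sequence was at hand (116 oligos), against 51.2% for the tested oligos and 47.3% for the 325 with a sequence of the 411 at least 2-fold above. In the eighth of oligos with the lowest GC content, 95 of 1107 (8.58%) were at least 2-fold above 0 nM in both libraries, the largest share of the 8, and in the eighth with the highest 59 of 957 were (6.17%), against 3.98% of all tested. Of the 177, by UTR, 41 were in Synj2bp (of 1048 tested) and 23 in Sos2 (of 328), against 1.71% of all tested. The 6 blocks at least 1.5-fold below 0 nM were Synj2bp tiles 381 to 390, 551 to 560, 561 to 570 and 771 to 780, Soga3 tiles 71 to 80 and the Wasf3 block named before, and the first 5 had no designed motif. Synj2bp tiles 771 to 780 held 3964 Input, 2415 0 nM, 992 Rep1 and 414 Rep2 reads. Neither these oligos nor these blocks passed edgeR's test.

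The library without protein was not a copy of the Input pool. At 0 nM, 145 of 10336 oligos (1.4%) were at least 2-fold above Input and 1658 (16.0%) at least 2-fold below. The 145 had a median of 1.21 against Input at 0 nM, 0.76 in 5 nM Rep1 and 1.0 in Rep2 (log2). Of them, 113 were above Input in both 5 nM libraries, as were 3392 of all 10336 tested, and the other 32 were not. Each of these ratios is taken over the same single Input count, so a low count there raises them together. By type, the 145 were 59 of 4031 motif oligos (1.46%), 62 of 3888 mutated (1.59%) and 24 of 2417 motif-free (0.993%). These shares lie near that of all oligos. By UTR, 34 were in Spock2 (of 778 tested) and 32 in Diras1 (of 501). Among oligos with 81 or more motif bases, 9 of 119 (7.56%) were at least 2-fold above Input without protein.

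The highest background oligo was the mutated Spock2 tile 87. It had 130 Input reads and 1694 at 0 nM, 11.5 times its Input share (249 RPM, exact 95% interval 237 to 261, against 21.6, interval 18.0 to 25.6). At 5 nM it stood at 9.07 and 7.50 times Input, below the value without protein. The next were the mutated Diras1 tile 127, at 3.58 times Input without protein and 3.32 and 3.56 at 5 nM, and the mutated Spock2 tile 511, at 3.42 and then 3.36 and 3.84. Neither differed between 0 nM and 5 nM by as much as 1.5-fold. The mutated Spock2 tile 297 stood at 3.27 and then at 3.75 and 4.58, and the mutated Lrrc47 tile 180 at 2.47 and then at 1.65 and 2.82. All 5 were mutated oligos with 5 or 6 mutated bases.

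Background oligos also came in neighbouring tiles. In Diras1, 7 oligos of tiles 147 to 154 held 2154 Input and 6739 0 nM reads, 2.77 times the Input share, and stood at 2.05 and 1.97 times Input at 5 nM. In Spock2, 4 oligos of tiles 85 to 88 were at 2.31 times Input without protein and at 1.90 and 1.70 at 5 nM. In Lrrc47, 3 oligos of tiles 11 to 18, inside the motif-dense stretch shown above, were at 2.41 without protein, 1.36 and 2.95 at 5 nM, and 7.91 and 5.34 at 500 nM. The first 2 of these runs stood near Input at 500 nM, at 0.890 and 0.778 for Diras1 and 1.01 and 0.926 for Spock2.

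At the other end, the 5 lowest ratios at 0 nM among oligos with at least 100 Input reads were all at 0 reads. Synj2bp tile 171 had 534 Input reads and was at least 201-fold lower at 0 nM, taking 3 reads as the limit. It had 17 reads in Rep1 and 0 in Rep2. The mutated Ksr2 tile 655 (365 Input reads) had 1 and 0 reads at 5 nM, the mutated Kcnj12 tile 356 (332) had 8 and 0, and Ksr2 tile 1539 (292) had 29 and 0. Only Diras1 tile 355 (273 Input reads), in the Diras1 run described above but without a sequence at hand, had many in both, 54 and 132.

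The background differed with GC content. In the eighth of oligos with the lowest GC content (25.4% to 41.9%), the median against Input was -0.64 at 0 nM and -0.67 and -1.03 at 5 nM (log2, n = 1107). In the eighth with the highest (58.5% to 70.0%), it was 0.45 at 0 nM and 0.43 and 0.52 at 5 nM (n = 957). The 145 oligos enriched without protein had a median GC content of 57.3% and the 1658 depleted ones 45.4%, among those with a sequence. Against 0 nM, the eighths differed less, with medians of 0.00 and -0.32 in the lowest. The part of GC content in the background was not tested further. The GAUG-dense Ksr2 run had a mean GC content of 42.5% and the Spock2 GU run 48.0%, both below the median of the tested oligos.

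The same oligos were read out in the MPRA, which RBNS values did not enter. CAD cells without doxycycline expressed TDP-43, and cells given doxycycline had it switched off. The labels give 2 µg/mL for 48 h on every sample, and the MPRA methods name a lower dose. Each group had 4 cultures, and neurite and soma were counted apart. The localization ratio is the log2 ratio of an oligo's share of UMIs (unique molecular identifiers) in neurites to its share in soma, with 0.5 added, at 7641858 to 11967323 UMIs per library. Over 6448 unmutated oligos the median ratio was -0.04 to -0.03 in the 4 cultures with TDP-43 and -0.58 to -0.45 in the 4 without, a shift of the whole pool, so ratios per oligo were also taken relative to this median.

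In the 90 unmutated oligos of the Ksr2 and Wasf3 GAUG runs, the median localization ratio was 0.45, 0.46, 0.65 and 0.67 in the cultures with TDP-43 and 3.87, 3.73, 3.86 and 4.10 in those without. The groups did not overlap. Relative to the pool median, all 4 cultures without TDP-43 were above all 4 with it in 90 of the 90 oligos, against 5.89% of all unmutated oligos. These oligos took 4455 to 4696 of every 1000000 neurite UMIs with TDP-43 and 78151 to 99226 without, while in soma they took 1973 to 2474 and 6468 to 7361. The 52 mutated companions gave -0.21 to 0.06 with TDP-43 and 3.32 to 3.72 without, also in 52 of 52.

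The 70 unmutated oligos of the 5 motif-dense runs that stood above 0 nM and Input at 5 nM differed less between the groups. Their median ratio was -0.61, -0.37, -0.27 and -0.22 with TDP-43 and -0.02, -0.03, -0.12 and -0.09 without it, and relative to the pool median the groups separated upwards in 66 of 70 oligos. Their 69 mutated companions stood at -0.01 to 0.17 and -0.49 to -0.29, close to the pool, and separated upwards in 0 of 69 and downwards in 1 (2.48% of all unmutated oligos separated downwards). The GC-rich oligo Diras1 tile 323, which had 0 reads at 0 nM and no motif, had ratios of 0.09, 0.28, 0.23 and -0.31 with TDP-43 and -0.61, -0.23, -0.58 and -0.47 without it, near the pool in both groups. Tiles overlap within each run, so these counts describe 7 stretches of sequence and carry no test.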

How the data were processed

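RBNS libraries (1 Input, 1 at 0 nM, 2 at 5 nM, and the 2 at 50 nM and 2 at 500 nM for the spread) and 16 MPRA libraries were used, and the RNA-seq and SLAM-seq files were not used here. The authors deposited read counts per oligo for RBNS. Per the study's methods they trimmed adapters with cutadapt, assigned read pairs to oligos with bowtie2 (version not given in the sources used here) and normalised by total mapped reads. For the MPRA the authors deposited UMI counts per oligo. Samples were grouped by their titles.

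Shares of all reads with 0.5 added were compared on the log2 scale. edgeR 4.0.16 (R 4.3.3; glmQLFit and glmQLFTest, library size all reads, Benjamini-Hochberg, 0.05) was fitted to the 7 pull-down libraries on oligos with at least 20 Input reads, so the lone 0 nM library was assumed to vary like the replicate pairs. Motif oligo and companion counts were tested in one model per pair. DESeq2 1.42.0, other scalings, filters, folds and left-out libraries were alternatives. Fits were tested on simulated data with 200 changed oligos, pairs or blocks. Means and intervals used Python 3.11.15 and scipy 1.17.1.

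Sequences came from GENCODE vM21 transcripts (mm10), placed by the motif positions in the oligo names, for 14 of 16 UTRs and 9381 oligos. The motif positions were checked against the names, with 0 motif tiles mismatching, and 70 tiles came from the study's own list. Of 2173 motif-free oligos with a sequence, 89 held a designed motif, and these were left out of the counts by number of GAUG.

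The named oligos were to be the calls with the largest change, the largest falls, the 5 highest and 5 lowest ratios of 0 nM to Input with at least 100 Input reads (1 per run of tiles), and the 5 largest pair changes. Only the ratio of 0 nM to Input gave names, since edgeR called nothing else, and the MPRA comparison planned for called oligos was made for the runs. The members and lists were chosen with earlier results of these data known.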

Additional observations from a re-analysis of the deposited data

Results flagged for a closer look

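For 4 single oligos of the runs above Input, the MPRA localization ratio had one sign in all 4 cultures with TDP-43 and the opposite sign in all 4 without it. The difference between the group medians (without minus with TDP-43, log2) was 0.74 for Spock2 tile 21, 0.63 for Fam219a tile 163 and 1.29 for Kcnj12 tile 417, all motif oligos, and 1.24 for the mutated Ksr2 tile 1424. Spock2 tile 21 had -0.52, -0.25, -0.19 and -0.21 with TDP-43 and 0.57, 0.39, 0.48 and 0.55 without it. The mutated Ksr2 tile 1424 had -0.26, -0.23, -0.05 and -0.18 and then 0.83, 1.01, 1.05 and 1.12. These ratios are not relative to the pool, whose median over unmutated oligos moved from -0.04 with TDP-43 to -0.52 without it. The 4 oligos moved the other way. Outside the runs above Input, Ksr2 tile 1270 also changed sign between the groups, downwards as the pool did. These differences were not tested.

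In 2 mutated oligos 1 culture stood apart from the other 3 of its group. The mutated Spock2 tile 21 was at 0.21 in culture 1 with TDP-43, and the mutated Fam160b2 tile 268 at -0.53 in culture 4 without it. Chance sets apart about 1 in 20 such groups.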

How the results depend on the processing

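With single oligos, edgeR's 0 calls at 5 nM became 43 (42 higher) with TMM factors, 18 (18 higher) with the library size taken from motif-free oligos, 15 without the Input filter and 20 with only the 0 nM and 5 nM libraries, and DESeq2 gave 96. With 1 library left out the count ran from 0 to 51: 37 without 5 nM Rep1, 47 without 500 nM Rep1, 51 without 500 nM Rep2 and 0 without 5 nM Rep2 or either 50 nM library. It stayed at 0 with 100 Input reads, at 0.01 and with the replicate block. For pairs the count ran from 0 to 178, with 178 (76 higher, 102 lower) only without 5 nM Rep1 and 0 under the 10 other alternatives, the replicate block among them. For blocks it was 2 with only the 0 nM and 5 nM libraries and 0 with the replicate block. The causes were not tested.

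The replicate numbers were not treated as pairs in the main fits, and the values given here cannot show whether they mark the protein batches. The Rep2 minus Rep1 differences correlated at 0.12 between 5 and 50 nM, -0.25 between 5 and 500 nM and -0.24 between 50 and 500 nM.

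The 411 oligos at least 2-fold above 0 nM became 141 with 100 Input reads and 878 at 1.5-fold, of which 108 had no read in the 0 nM and both 5 nM libraries. They ran from 615 to 1016 with 1 library left out (1016 without Rep1, 615 without Rep2), and lay between 346 and 417 under the other 4 alternatives. The 3-read minimum was chosen after seeing the data, as were blocks, thinning and the counts by GAUG and GC. The 145 oligos above Input at 0 nM became 89 with 100 Input reads and 963 at 1.5-fold. The median pair ratio at 500 nM was 0.39 and 0.45 for pairs mutated within 75 nt of an end, and the other 14 alternatives of that median stayed within the replicate spread. With 1 library at 0 nM and 1 Input, no value of either has a replicate check, and 2-fold differences of single oligos were mostly below what these depths could call.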
